A study of Schizosaccharomyces pombe with 130 samples.

Results

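The cytoplasmic ribosomal protein genes of the fission yeast Schizosaccharomyces pombe were taken as the genes whose name starts with rpl or rps followed by a digit. The name matched 140 of the 7021 features counted. Of these, 131 were protein-coding genes, 76 of the large subunit (rpl) and 55 of the small subunit (rps), and 9 were antisense RNAs named for such a gene, which are described apart. The values below are for the 131 genes, set against the 5111 protein-coding genes of the count tables.

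The cells were grown in rich YES medium, and the mutant strains carried deletions (d) or active-site point mutations (*) in RNA decay or heterochromatin factors. Wild type (wt, strains 63 and 65) was compared with mutants of the Ccr4-Not deadenylation complex, in which Caf1 and Ccr4 are the deadenylases and Mot2 is a ubiquitin ligase (caf1d, ccr4d, mot2d and the double point mutant caf1*ccr4*), with rrp6d, which lacks a nuclear exosome subunit, and with exo2d, which lacks the cytoplasmic 5′-3′ exonuclease. It was also compared with ago1d, which lacks Argonaute, with clr4d, which lacks the H3K9 methyltransferase, with swi6d and chp2d, which lack an HP1 protein each, with clr3d and mit1d, which lack subunits of the deacetylase and remodelling complex SHREC, and with the double mutants caf1dago1d and caf1ddcr1d. DNA bound by RNA polymerase II (Pol II) was sequenced after immunoprecipitation with an antibody against the Ser2-phosphorylated C-terminal domain (S2P-Pol II ChIP, occupancy). RNA bound by the same polymerase was recovered with that antibody (Pol II RIP, nascent RNA), and poly(A) RNA (pA RNA, steady-state) was sequenced without one. After a filter on the correlation between libraries, 29 ChIP, 37 RIP and 32 pA libraries were used, with 8 libraries of total RNA and 13 of input DNA. Group sizes were 1 to 4 libraries, and the labels do not say that libraries of a strain came from separate cultures, so p-values measure the spread between these libraries. Most mutants were 1 strain. The exceptions were caf1d (strains 510 and 591 in ChIP and RIP, 510 in pA and total RNA), caf1dago1d (strains 523 and 524) and mot2d (strain 1022, with 1023 in 1 pA library). Wt was strain 63 in RIP, strain 65 in total RNA and both in ChIP and pA RNA. By the strain list of the paper, the strains also differed in mating type, auxotrophic markers and reporter genes. Strain 65 carried FLAG-tagged Ago1, as did caf1d strain 510, ccr4d, mot2d, rrp6d and exo2d, while strain 63 did not. Another set of markers was listed for caf1*ccr4* and caf1d strain 591. The part of these differences in the results was not tested.

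Ribosomal proteins build the cytoplasmic ribosome together with the ribosomal RNAs, and a growing yeast cell spends a large part of its Pol II transcription on their genes. Most of these genes are short, many exist in several copies that code for nearly the same protein, and in fission yeast their promoters typically carry the HomolD box in place of a TATA box, often with a HomolE box upstream of it. In budding yeast their transcription follows nutrients through the TOR and protein kinase A pathways, and their mRNAs are among the most abundant of the cell.

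The 131 genes lay on all chromosomes, 58 on chromosome I, 48 on II and 25 on III. Of them, 68 (51.9%) had an intron, against 48.3% of all protein-coding genes. In the 250 bases upstream of the RefSeq gene start, the HomolD letters CAGTCACA, on either strand, stood in 84 of the 131 (64.1%), in 134 of 5110 protein-coding genes (2.62%) and in 0 of 34 mitochondrial ribosomal protein genes. The shorter core CAGTCAC, chosen after the sequences were seen, stood in 121 (92.4%), against 4.52% of all, at a median of 45 bases before the start. The HomolE letters CCCTACCCT were found in 47 (35.9%), against 1.49% of all, and both boxes in 27 (20.6%), against 0.626%. TATAAA, searched only on the strand of the gene, stood in 20 (15.3%), fewer than the 27.7% of all protein-coding genes. These are matches of letters, on either strand for HomolD and HomolE, and not measured binding sites. The 80 bases before the start are shown for the genes with the highest nascent RNA (rps2) and pA RNA (rps21) in wt, for the copies of the families rpl30 and rpl34, whose pA levels lay farthest apart, and for 2 genes that were lower in Ccr4-Not mutants (rps1201 and rps901). They are from RefSeq, build ASM294v3, written 5′ to 3′ on the strand of the gene, and capitals mark CAGTCAC or its reverse complement GTGACTG, and CCCTACCCT or its reverse complement AGGGTAGGG.
rps2 (III:2096037-2096116, minus strand): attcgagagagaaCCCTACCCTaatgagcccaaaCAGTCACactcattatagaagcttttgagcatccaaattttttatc
rps21 (II:2083788-2083867, plus strand): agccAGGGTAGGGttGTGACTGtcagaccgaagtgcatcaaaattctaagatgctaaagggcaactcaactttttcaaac
rpl3001 (I:1974084-1974163, minus strand): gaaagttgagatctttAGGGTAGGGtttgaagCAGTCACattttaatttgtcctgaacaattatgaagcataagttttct
rpl3002 (I:5095880-5095959, minus strand): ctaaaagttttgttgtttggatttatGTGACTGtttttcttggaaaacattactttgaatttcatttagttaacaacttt
rpl3401 (I:4093799-4093878, minus strand): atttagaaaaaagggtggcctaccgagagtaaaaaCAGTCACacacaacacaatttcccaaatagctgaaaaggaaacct
rpl3402 (III:1321268-1321347, plus strand): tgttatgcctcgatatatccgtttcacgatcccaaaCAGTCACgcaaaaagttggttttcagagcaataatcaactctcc
rps1201 (III:553094-553173, plus strand): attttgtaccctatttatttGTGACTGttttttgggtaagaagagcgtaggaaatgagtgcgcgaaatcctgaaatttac
rps901 (I:476123-476202, minus strand): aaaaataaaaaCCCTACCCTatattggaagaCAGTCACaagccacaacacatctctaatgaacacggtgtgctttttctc

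All 8 windows held the HomolD core, and 4 of them, rps2, rps21, rpl3001 and rps901, also held the HomolE box. The copies of rpl30 differed in this, since rpl3002 had the core only and on the opposite strand from that of rpl3001.

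The libraries differed in depth, from 2463745 to 18218383 counts for ChIP, 320014 to 5935811 for RIP and 2817056 to 22003055 for pA RNA. Levels are given as TPM (transcript counts per length, scaled to a fixed sum per library), computed from the counts and the gene lengths over protein-coding genes, so that they compare genes per length and are shares of each library. The deleted gene itself was at 0.131% to 3.84% of the median of the other strains in the pA libraries of ccr4d, mot2d, ago1d, mit1d, rrp6d and exo2d. It stood higher in chp2d (3.77% to 16.8%), clr3d (22.0% and 29.5%), caf1d (53.2% in replicate 1 and 17.5% in replicate 2), swi6d (31.2% to 61.1%) and clr4d (85.7% and 122%). In ChIP and RIP, signal was left at further deleted genes. In mot2d, mot2 stood at 106% and 57.0% in ChIP and at 11.0% to 29.1% in RIP. In caf1dago1d, caf1 stood at 63.8% and 36.3% in ChIP and at 10.8% to 28.1% in RIP, and ago1 at 1.52% at most. Which stretch of each gene was removed was not used here, so the names of strains with signal left stand for the libraries labelled so. The ChIP libraries of caf1dago1d spread genes little, with a distance between the 10th and the 90th percentile of ChIP over input (the median of the 13 input libraries, none of which was from caf1dago1d) of 0.80 and 0.79 on the log2 scale. One chp2d library (replicate 3) had 0.89, and all other libraries used had 1.89 to 3.03. Of the 131 genes, 4 had fewer than 50% of their 50-base windows unique in the genome (rpl1201 14.9%, rpl301 33.2%, rpl1202 39.3% and rpl302 43.9%), so that their counts of uniquely mapped reads, and those of the families rpl12 and rpl3, are uncertain.

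In wt, ribosomal protein genes took a growing share of the signal from polymerase to mRNA. They held 6.49% and 4.58% of the protein-coding TPM in the 2 ChIP libraries, 10.0% and 10.3% in the 2 RIP libraries, and 30.9%, 30.2%, 30.9% and 31.7% in the 4 pA libraries. The 2 libraries of total RNA had 24.6% and 37.2%. In input DNA, where no enrichment was made, the share was 2.10% to 2.86% in 12 libraries and 5.18% in the library of ago1d. The median ribosomal protein gene stood at the 93.0th percentile of protein-coding genes in occupancy, at the 95.8th in nascent RNA and at the 98.0th in pA RNA. Single genes were spread below this, down to the 9.57th percentile in occupancy and the 66.8th in pA RNA.

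**Figure D1:**
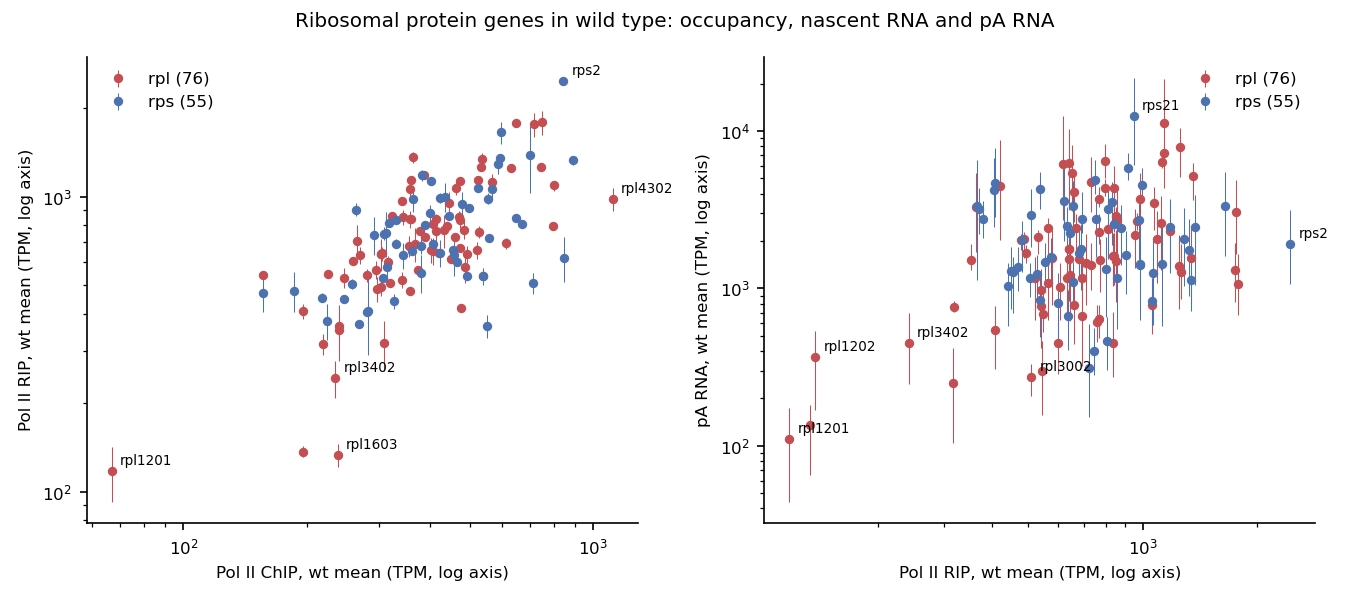
Levels of the 131 ribosomal protein genes in wild type, on log axes in TPM, with occupancy against nascent RNA and nascent RNA against pA RNA. Each point is a gene at the mean of its wild-type libraries, coloured by subunit, and the vertical bar spans those libraries for the measure on the y axis. Nascent RNA follows occupancy (Spearman's rho 0.63 over 131 genes) more closely than pA RNA follows nascent RNA (0.27).

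Occupancy was highest at rpl4302, with 1230 and 1000 TPM in the 2 wt libraries, rps3 (990 and 795), rps2802 (797 and 899), rps2 (988 and 703) and rpl701 (959 and 640). Rps2 and Rps3 line the path of the mRNA on the small subunit. The lowest values were those of rpl1201 (67.5 and 66.3), whose few unique windows bear on this, rps2601 (156.0 and 156.4), rpl301 (199 and 114), rps2201 (233 and 140) and rpl1002 (253 and 139).

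Nascent RNA was highest for rps2, with 2517 and 2394 TPM, a single-copy gene that was also among the 5 highest in occupancy. It was followed by rpl13 (1952 and 1614), rpl8 (1739 and 1799), rpl6 (1926 and 1586) and rps102 (1789 and 1510), whose ranges overlapped, so that their order is not resolved. At the low end stood rpl1201 (92.1 and 142), rpl1603 (145 and 121), rpl1202 (131 and 142), rpl3402 (277 and 207) and rpl302 (343 and 290). Rpl12 sits at the base of the stalk to which elongation factors bind, and both of its genes were among the 4 with few unique windows. Single-copy genes had a median nascent level of 1138 TPM, against 658 TPM for genes with further copies. Genes with a HomolE box had 834 TPM, against 657 TPM for those without, which is given as a description of groups that were chosen by sequence.

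The pA level was highest for rps21, with 6223, 6090, 16030 and 21661 TPM in wt replicates 1 to 4. The small large-subunit gene rpl29 had 4313, 4438, 15083 and 21416 TPM. Both stood at least 2-fold higher in replicates 3 and 4 than in replicates 1 and 2. By contrast rpl26, with 6463, 6519, 8679 and 7201 TPM, held nearly one level, and rpl22 (5132, 5464, 10368 and 10472) and rpl31 (4997, 5125, 8237 and 7439) stood between. The lowest pA levels were those of rpl1201 (163, 173, 62.3 and 43.8), rpl1603 (65.4, 136, 161 and 181), rpl302 (419, 361, 105 and 111), rpl3002 (208, 289, 332 and 261) and rpl301 (463, 395, 156 and 178). Rpl41, the shortest ribosomal protein at 25 residues, is coded by rpl4101 (3164, 3093, 7391 and 8119 TPM) and rpl4102 (2794, 2702, 6626 and 12472 TPM). The copies of rpl41 overlapped over the 4 libraries.

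The level of pA RNA thus differed between wt libraries by gene length. The log2 difference between the medians of short (up to 617.5 bases, 33 genes) and long (from 923.5 bases, 33 genes) ribosomal protein genes was 0.78 in replicate 1 and 1.00 in replicate 2, but 2.56 in replicate 3 and 2.57 in replicate 4. Other protein-coding genes, split at the quartiles of their own lengths and so into other length classes, gave 0.75, 0.95, 1.32 and 1.49. Strain does not separate the pairs, since replicates 1, 3 and 4 are strain 63 and replicate 2 is strain 65, and the labels give no batch. Total RNA split as well, with 0.66 and 0.58 in wt, but 2.25, 1.93 and 2.10 in replicate 1 of ago1d, caf1d and clr4d and 0.54, 0.52 and 0.63 in their replicate 2. Relative to the median protein-coding gene, the median ribosomal protein gene stood 5.01, 4.86, 4.11 and 4.21 higher on the log2 scale in wt replicates 1 to 4. The part of this in the comparisons of pA RNA below was measured by refitting them against each pair of wt libraries.

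**Figure D2:**
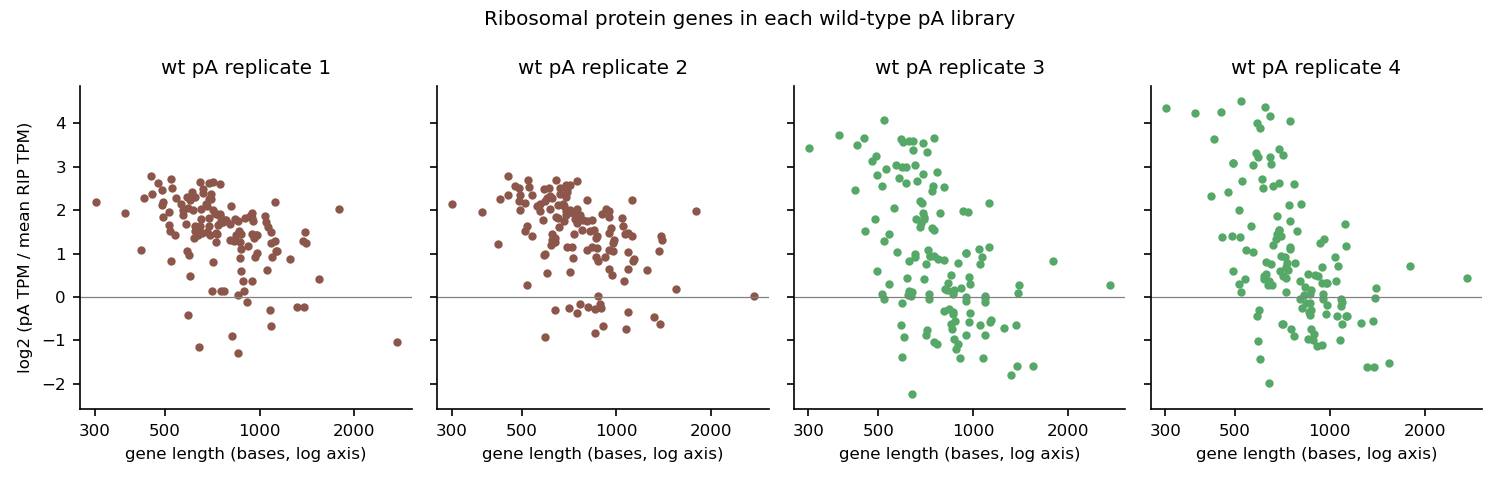
Log2 ratio of pA TPM in each of the 4 wild-type libraries to the mean nascent (RIP) TPM of wild type, against gene length in bases on a log axis. Each point is 1 of the 131 genes, and short genes lie higher and long genes lower in replicates 3 and 4 than in replicates 1 and 2, where the short-minus-long difference of pA RNA is 0.78 and 1.00 on the log2 scale, against 2.56 and 2.57.

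Transcription efficiency, the nascent RNA per polymerase (RIP over ChIP TPM, log2, with the median protein-coding gene at 0), was high for nearly all members in wt. The median ribosomal protein gene had 1.28 ± 0.39 (SD over 4 pairs of libraries), and 126 of 131 lay above the median protein-coding gene. The paper subtracted scaled input from ChIP, which was not done for these values. With scaled input subtracted the median was 1.06. Without subtraction, efficiency was highest for rpl3401, with 2.28 ± 0.48, rpl301 (2.17 ± 0.52) and rps1101 (2.15 ± 0.38). Of these, rpl301 had input DNA at only 36.2% of the protein-coding median, and the whole length of rps1101 was overlapped by other counted features. The lowest efficiencies were those of rpl1603 (−0.46 ± 0.24), rps3001 (−0.22 ± 0.47) and rpl1202 (−0.14 ± 0.43). Genes without an intron had a median of 1.45, against 1.07 for genes with one.

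RNA stability (pA over RIP TPM, on the same scale) had a median of 1.83 ± 0.43 over ribosomal protein genes (SD over 8 pairs), and 124 of 131 lay above the median protein-coding gene. It was highest for rps21 (4.30 ± 1.01), rps2801 (4.08 ± 0.97) and rpl3802 (3.99 ± 1.06), all genes of the short kind whose pA level separated the wt libraries. It was lowest for rps1401 (−0.63 ± 0.73), whose product lies at the platform of the small subunit, rpl3002 (−0.33 ± 0.31) and rpl401 (−0.32 ± 0.55). Genes with an intron had a median stability of 2.25, against 1.51 without, the opposite order from efficiency. The size of this gap depended on the wt pA libraries. The medians were 2.34 with an intron and 1.93 without for pA replicates 1 and 2, but 2.09 and 0.93 for replicates 3 and 4. Over the 131 genes stability was lower in longer genes, with a Spearman's rho of −0.56 with all wt libraries, −0.51 with pA replicates 1 and 2, and −0.55 with replicates 3 and 4. The rho of length with the nascent level was −0.01. These correlations describe genes measured in the same libraries, which are not independent replicates.

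Copies of a gene were mostly unequal. By name and protein the 131 genes formed 74 families, of which 20 had 1 member, 51 had 2 and 3 had 3. Proteins of the copies were 80.3% to 100% identical (median 97.5%), and they were the same in 14 of 54 families. The highest and lowest copy of a family differed in pA RNA of wt by a median of 0.73 on the log2 scale (1.66-fold), more than 1 in 20 families and more than 2 in 4. In 38 of 54 families the same copy was the higher one in all 4 wt libraries, and in 25 in all 32 pA libraries. The copy that was higher in pA RNA was also higher in nascent RNA in 35 families and in occupancy in 33. Taken without its sign, the median difference was 0.50 in nascent RNA and 0.58 in occupancy, against 0.24 in input DNA. Counted in the direction of the copy higher in pA RNA, it was 0.24 in nascent RNA and 0.18 in occupancy.

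The families rpl30 and rpl34 were the most unequal, and they differed in the step at which the gap was seen. For rpl30, rpl3001 had 3884, 3985, 4925 and 4526 TPM of pA RNA in wt replicates 1 to 4, and rpl3002 had 208, 289, 332 and 261. The log2 difference of the means was 3.99, yet only 0.64 in nascent RNA, where rpl3001 had 803 and 785 TPM and rpl3002 519 and 499. In rpl34, a large-subunit protein, rpl3401 had 5926, 6275, 4747 and 3620 TPM of pA RNA, and rpl3402 had 589, 693, 270 and 248. This log2 difference of 3.51 was largely present in nascent RNA (2.49), in which rpl3401 had 1415 and 1301 TPM and rpl3402 277 and 207. The rpl30 proteins share 81.2% of their residues and the rpl34 proteins 95.5%. The introns of rpl30 also differ in length, 59 bases in rpl3001 and 246 in rpl3002. Among the 78 introns of ribosomal protein genes (38 to 441 bases, median 78), 9 were longer than that of rpl3002. Both are shown because rpl3002 changed in rrp6d and exo2d below, and capitals mark their first and last 2 bases.
rpl3001 (intron, I:1973757-1973815, minus strand): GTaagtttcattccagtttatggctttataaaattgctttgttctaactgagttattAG
rpl3002 (intron, I:5095302-5095547, minus strand): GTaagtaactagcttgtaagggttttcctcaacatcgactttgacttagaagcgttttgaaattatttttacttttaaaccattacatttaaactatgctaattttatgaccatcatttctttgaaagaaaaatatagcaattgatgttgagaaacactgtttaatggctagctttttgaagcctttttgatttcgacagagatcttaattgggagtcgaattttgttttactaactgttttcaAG

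The next families were rpl16, in which rpl1602 had 615 TPM and rpl1603 136 TPM (log2 difference 2.18, 1.50 to 3.58 over the 4 libraries), rpl1 (rpl101 2592 and rpl102 635 TPM, 2.03, 0.84 to 2.99) and rps23, whose copies code for the same protein of the decoding centre (1.96, 1.12 to 3.39). In rpl16 the gap was also present in nascent RNA (2.51), while in rps23 it was 0.21. The smallest gaps were those of rpl5 and rps6 (0.01 each) and of rpl35a and rpl35b (0.04). For the last this mean hid a change of sign, from −1.30 to 0.83 over the 4 libraries, so that neither copy was the higher one. Some families changed order between polymerase and mRNA. In rps14, outside the families above and chosen after its values were seen, rps1402 was the higher copy in pA RNA (1.88 on the log2 scale, 1.23 to 2.56 over the 4 libraries), while rps1401 was the higher one in nascent RNA (−0.52) and in occupancy (−1.11).

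**Figure D3:**
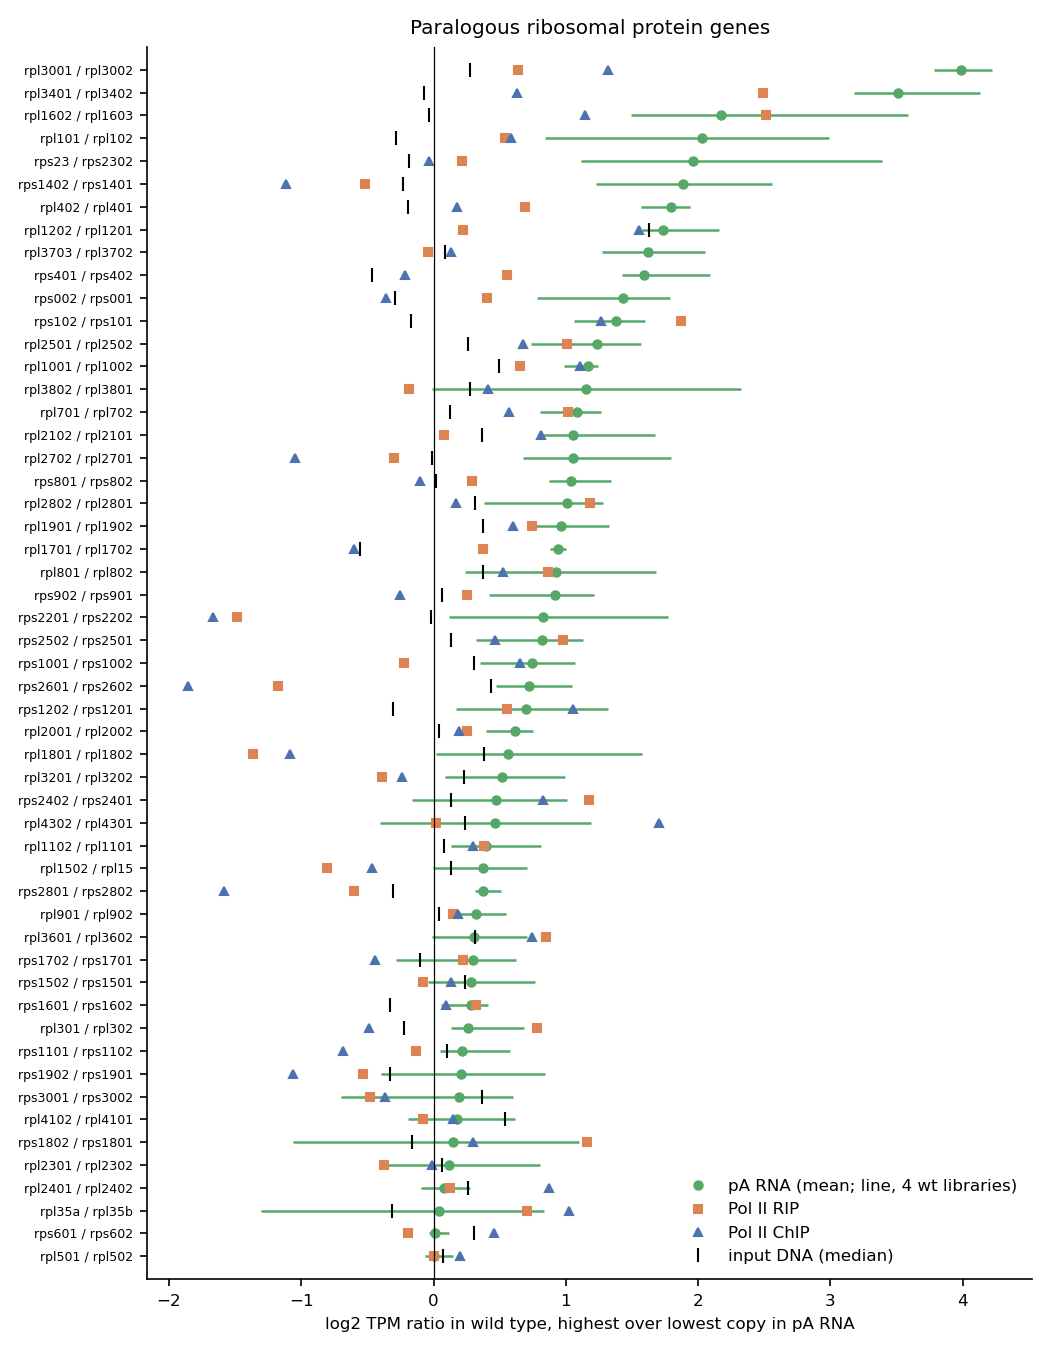
Log2 TPM ratio in wild type of the copy with the highest to the copy with the lowest pA RNA, for the families with several copies, 1 family left out, ordered by that ratio. Circles are pA RNA with a line over the 4 libraries, squares nascent RNA, triangles occupancy and ticks input DNA (median over libraries), and the ratio of rpl30 is 3.99 in pA RNA and 0.64 in nascent RNA, that of rpl34 3.51 and 2.49.

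Summed over copies, families were more alike than single genes in RNA and occupancy. The SD of log2 TPM was 1.22 over genes and 0.95 over family sums in pA RNA, 0.69 and 0.53 in nascent RNA, and 0.58 and 0.51 in occupancy. In total RNA it fell from 1.06 to 0.50, while in input DNA it rose from 0.36 to 0.49. Summing genes can by itself change this spread, and sums over other groupings were not made for comparison. The sums of families with several copies had a median of 3360 TPM of pA RNA, against 2877 TPM for the genes with a single copy. In nascent RNA these medians were 1448 TPM and 1138 TPM.

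Across genotypes, the share of pA RNA taken by ribosomal protein genes was lowest in caf1d and caf1*ccr4*. It was 20.4% and 18.6% in the libraries labelled caf1d, and 20.7% and 21.9% in caf1*ccr4*, below all 4 wt libraries (30.2% to 31.7%). In ccr4d it was 25.8% and 26.8%, and in rrp6d 27.5% and 25.8%, likewise below all wt libraries. The mot2d libraries came from 2 strains and gave 21.1% (strain 1022) and 30.5% (strain 1023), and exo2d had 30.5% in both libraries. In nascent RNA, however, exo2d had 13.1% and 13.2%, and in ChIP 7.75% and 8.50%, above both wt libraries of each assay. In swi6d, with 38.9%, 27.8% and 31.9%, the share spanned the wt values. Over all libraries the share was 18.6% to 38.9% in pA RNA, 5.93% to 14.8% in RIP and 2.32% to 8.77% in ChIP, and the lowest ChIP shares were those of caf1dago1d (2.74% and 2.32%).

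**Figure D4:**
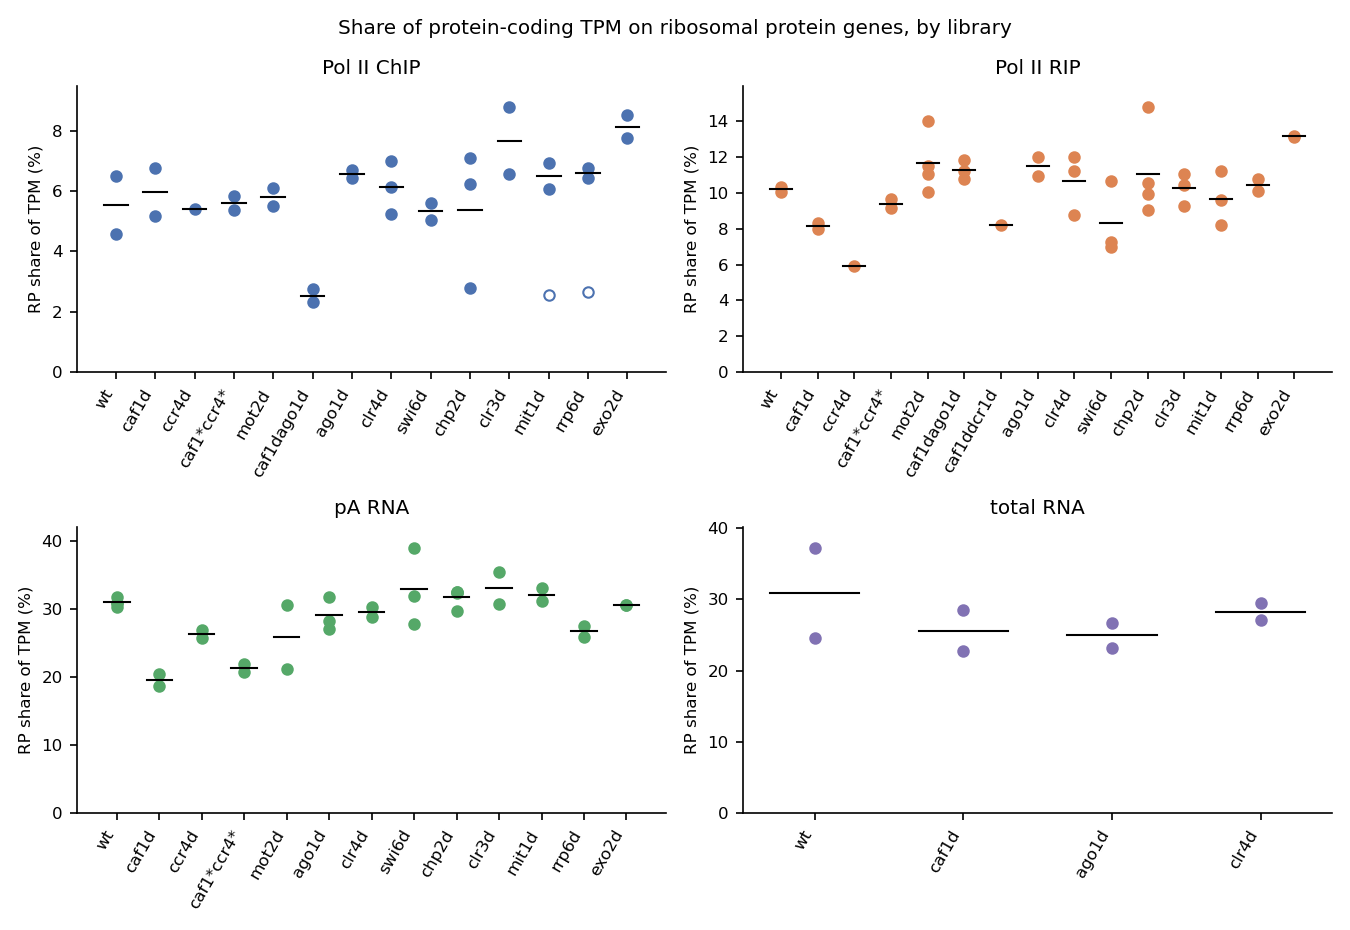
Share of protein-coding TPM taken by the 131 ribosomal protein genes, in percent, by genotype in ChIP, RIP, pA and total RNA. Each point is 1 library, open circles are the 2 ChIP libraries left out and lines are means of the libraries used. In pA RNA, caf1d and caf1*ccr4* (18.6% to 21.9%) lie below all 4 wild-type libraries (30.2% to 31.7%), and in ChIP caf1dago1d lies lowest (2.32% and 2.74%).

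In pA RNA of the libraries labelled caf1d, 70 of 131 ribosomal protein genes were lower than in wt (edgeR's quasi-likelihood test, adjusted p under 0.05) and 0 were higher, against 8.38% lower among the 5050 protein-coding genes tested. The median log2 change was −1.07, against −0.02 over all genes, and 130 of 131 changes were negative. The gene with the lowest p was rps1201, coding for a small-subunit protein, with 2100, 1866, 1109 and 1229 TPM in wt replicates 1 to 4 and 602 and 786 in caf1d. Both caf1d libraries lay below all wt libraries, and the log2 change was −1.59 (SE 0.30, adjusted p = 0.00131). For rpl901 the levels were 2891, 2902, 3267 and 2419 in wt and 1660 and 2000.2 in caf1d (−1.05, SE 0.23, adjusted p = 0.00318). For rps1901, whose product sits in the head of the small subunit, they were 1477, 1245, 755 and 915 in wt and 560.1 and 553 in caf1d (−1.38, SE 0.30, adjusted p = 0.00358). In all 3 genes the groups did not overlap, which held for 34 of 131 ribosomal protein genes in this direction, against 3.09% of all genes.

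The double point mutant caf1*ccr4*, in which both deadenylases are present but mutated in the active site, gave 61 lower and 0 higher of 131, with 9.88% lower among all genes, and a median of −1.02 against −0.06. Here rps901, coding for a protein at the mRNA entry of the small subunit, had the lowest p. It had 2321, 1997, 1257 and 1173 TPM in wt and 823 and 707 in caf1*ccr4* (−1.48, SE 0.29, adjusted p = 0.00144). Also among the lowest p was that of rps1201, with 741 and 724 TPM in the mutant and the wt levels given above (−1.45, SE 0.30, adjusted p = 0.00228). Again the groups did not overlap in both genes, as in 40 of 131 ribosomal protein genes, against 5.91% of all genes.

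These counts depended on which wt libraries were used. Against replicates 3 and 4 alone, caf1d had 41 lower members (11.9% of all genes) with a median of −0.64, and caf1*ccr4* 32 (12.0% of all genes) with −0.59. Against replicates 1 and 2 alone both had 84 (11.2% and 14.7% of all genes), with medians of −1.35 and −1.25. The 14 members lower in caf1d against all 3 choices of wt libraries were rpl1102, rpl1602, rpl1801, rpl2002, rpl2701, rpl3001, rpl4301, rpl801, rpl901, rps1201, rps1901, rps2602, rps403 and rps901. In caf1*ccr4* they included rpl2102, rpl2301, rpl3001, rpl502, rpl801, rpl901, rps1001, rps1201, rps1901, rps403 and rps901. The choice of all wt libraries holds both pairs, so the 3 choices are not independent. The share of all genes lower against all 3 was not counted. Single libraries weighed as much, since without caf1d replicate 1 the count in caf1d was 18, and without caf1*ccr4* replicate 2 that in caf1*ccr4* was 4. In the first case the adjusted p of rpl901 was 0.0504, and in the second those of rps901 and rps1201 were 0.0508. All these comparisons share the same wt controls, so that their likeness is not independent.

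**Figure D5:**
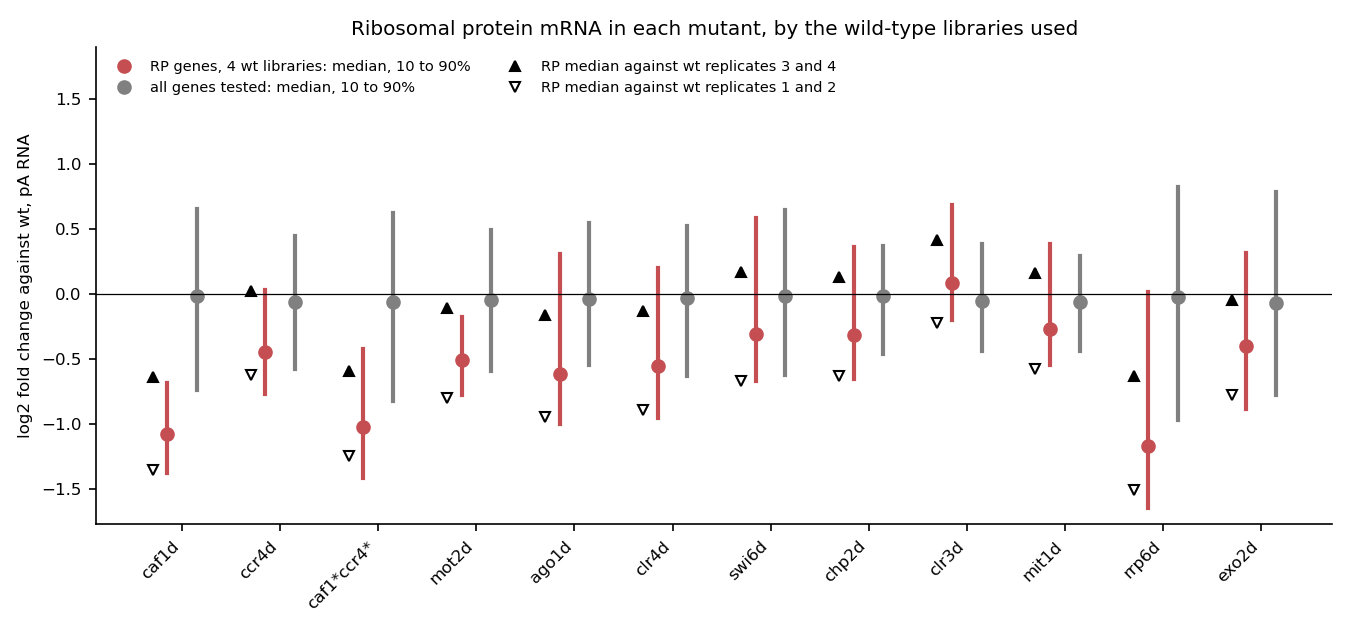
Log2 fold change of pA RNA against wild type in each mutant, with the median (circle) and the 10th to 90th percentile (bar) over the 131 ribosomal protein genes (red) and over all genes tested (grey). Triangles give the median of ribosomal protein genes against wild-type replicates 3 and 4 (filled) or 1 and 2 (open), and only caf1d, caf1*ccr4* and rrp6d have filled triangles far below 0, at −0.64, −0.59 and −0.63.

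The other Ccr4-Not mutants had lower medians with few or no calls. In ccr4d the median was −0.45 with 0 of 131 called (17 lower at an unadjusted p under 0.05, and 5 called by DESeq2). Among all 5050 genes, 147 were lower and 105 higher in ccr4d at an adjusted p under 0.05. Here and below, no share of all genes is given at an unadjusted p under 0.05 or for DESeq2. Such counts therefore cannot be set against all genes. In mot2d the median was −0.51 with 1 member lower, against 2.89% of all genes. That gene was again rps1201, at 622 TPM in strain 1022 and 1033 in strain 1023 (−1.15, SE 0.30, adjusted p = 0.0234), and its call was lost without the library of strain 1022 (adjusted p = 0.387) or without wt replicate 1 (adjusted p = 0.0529), and against wt replicates 3 and 4 (adjusted p = 0.0711).

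In rrp6d, 84 of 131 members were lower in pA RNA and 2 were higher, with 16.5% lower and 15.4% higher among all genes. The median change was −1.16, against −0.03 over all genes. Rps26 lies at the mRNA exit of the small subunit, and its gene rps2601 had 1747, 1841, 959 and 957 TPM in wt and 517 and 520.02 in rrp6d (−1.64, SE 0.30, adjusted p = 0.000316). The large-subunit gene rpl802 had 895, 1081, 379 and 319.9 in wt and 134 and 132 in rrp6d (−2.56, SE 0.49, adjusted p = 0.000428). The small-subunit gene rps403 had 1623, 1444, 997 and 867 in wt and 581 and 591 in rrp6d (−1.31, SE 0.27, adjusted p = 0.00108). In these 3 genes, as in 85 of 131 ribosomal protein genes against 12.3% of all genes, rrp6d lay below every wt library. Against wt replicates 3 and 4 alone, however, 10 members were lower (7.78% of all genes), with a median of −0.63, and without rrp6d replicate 2 the count was 12. The 10 of 131 members lower against replicates 3 and 4 were near the share of all genes. Of the members, 9 were lower against all 3 choices of wt libraries, namely rpl301, rpl501, rpl502, rpl801, rpl802, rpl901, rps2601, rps403 and rps901. The share of all genes lower against all 3 was not counted.

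The 2 members that rose in rrp6d, which were named after their values were seen, were the lower copies of their families. For rpl3002 pA RNA was 208, 289, 332 and 261 TPM in wt and 1689 and 1680.2 in rrp6d (log2 change 2.39, SE 0.29, adjusted p = 2e-06), while rpl3001 was at 3884, 3985, 4925 and 4526 in wt and 4636 and 4432 in rrp6d. Its nascent RNA rose too, from 519 and 499 TPM in wt to 1839 and 1450.3 in rrp6d (1.56, SE 0.25, adjusted p = 0.000230), as the 1 member higher in nascent RNA of rrp6d, against 2.31% of all genes. The gap between the copies of rpl30 was thereby at its smallest over all pA libraries, 1.40 on the log2 scale. For rpl102, whose product belongs to the mobile stalk near the exit of tRNAs, pA RNA was 485, 606, 783 and 667 in wt and 1592 and 1639 in rrp6d (1.10, SE 0.26, adjusted p = 0.00297). The other copy, rpl101, was at 3849, 3814, 1403 and 1302 in wt and 950.3 and 930.3 in rrp6d, so that the order of the copies was turned. Both rises held against wt replicates 3 and 4 alone (rpl3002 2.25, adjusted p = 0.000161; rpl102 0.90, adjusted p = 0.0489).

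In exo2d, pA RNA of 2 members was higher and of 3 lower, with 11.7% higher and 11.3% lower among all genes, and the median was −0.40. These 5 genes were named after their values were seen. The member that rose most was rps3001, with 1130, 1313, 4419 and 6537 TPM in wt and 12038 and 14224 in exo2d (1.93, SE 0.56, adjusted p = 0.0171). It was also the 1 member higher in nascent RNA, with 332 and 398 TPM in wt and 813 and 897 in exo2d (1.21, SE 0.29, adjusted p = 0.0184, against 1.73% of all genes). In occupancy it was the 1 higher member as well, with 672 and 431 TPM in wt and 1265 and 1648 in exo2d (1.39, SE 0.34, adjusted p = 0.0247, against 1.99% of all genes). Thus rps3001 was higher at all 3 levels, each with groups that did not overlap. Its calls in nascent RNA and occupancy were lost when single exo2d or wt libraries were left out (adjusted p of 0.0765 to 0.282 and 0.130 to 0.218), and that in occupancy also with all ChIP libraries kept (0.140). The other higher gene was rpl3002, at 566 and 487 TPM in exo2d (0.93, SE 0.30, adjusted p = 0.0278). The gene rps1401 had 324, 591, 153 and 184 in wt and 68.8 and 60.6 in exo2d (−2.28, SE 0.57, adjusted p = 0.00733), while rps2601 (−0.92, SE 0.29, adjusted p = 0.0276) and rps403 (−0.74, SE 0.27, adjusted p = 0.0484) were the other 2 lower ones. None of these 5 calls in pA RNA held against wt replicates 3 and 4 alone, where adjusted p was 0.103 to 0.476, and the count was 0 without exo2d replicate 1 and 32 without wt replicate 4.

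Of the RNAi and heterochromatin mutants, ago1d had 12 lower members of 131 (2.36% of all genes, median −0.62), and this count was 0 against wt replicates 3 and 4 and also 0 without ago1d replicate 3. In swi6d 1 member was higher, against 6.57% of all genes, namely rpl102 with 1215, 786 and 987 TPM (0.75, SE 0.24, adjusted p = 0.0410), which was lost without swi6d replicate 1 (adjusted p = 0.185), without wt replicate 1 (0.130) or 2 (0.104), and against wt replicates 3 and 4 (0.340). In clr4d, chp2d, clr3d and mit1d no member was called, with medians of −0.55, −0.31, 0.09 and −0.26. At an unadjusted p under 0.05, 44 members were lower in clr4d and 17 in chp2d, while 13 were higher in clr3d and 1 in mit1d. The share of all genes at that threshold was not counted. At an adjusted p under 0.05, 18, 1, 19 and 2 of all 5050 genes were lower in clr4d, chp2d, clr3d and mit1d, and 36, 7, 19 and 3 higher. DESeq2 called 1, 0, 1 and 0 members in these mutants. These counts too depended on the wt libraries, since without wt replicate 4 they were 16 in clr4d and 26 in swi6d. Against wt replicates 1 and 2 alone, clr4d had 67 lower and 10 higher members (19.8% and 17.0% of all genes), chp2d 62 and 20 (20.8% and 16.7%) and swi6d 62 and 24 (23.5% and 21.8%). Under the same choice mit1d had 7 and 4 (4.02% and 1.98%) and clr3d 0 and 1 (1.27% and 0.812%). Against wt replicates 3 and 4 the medians of the mutants other than caf1d, caf1*ccr4* and rrp6d lay on both sides of 0, from −0.16 in ago1d to 0.42 in clr3d, and the medians of ccr4d, swi6d, chp2d and mit1d were then positive (0.03, 0.17, 0.13 and 0.16).

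Nascent RNA changed in few members. In caf1*ccr4* 5 of 131 were lower and 0 higher, against 4.49% lower among all genes, with a median of −0.32. These were rps1401 (−1.35), rps2201 (−1.24), rpl39 (−1.22), rpl1801 (−1.15) and rpl1701 (−1.12), named after their values were seen. The count was 0 without caf1*ccr4* replicate 1 and 13 without chp2d replicate 4. In caf1d 0 were called, although 45 were lower at an unadjusted p under 0.05 and the median was −0.47, and DESeq2 also called 0. The median was −0.39 in swi6d, with 0 called by either tool, 17 lower at an unadjusted p under 0.05 and 10 called without swi6d replicate 3. In caf1d and swi6d edgeR called 22 and 0 of all 5032 genes lower, and 18 and 5 higher, at an adjusted p under 0.05. The share of all genes at the unadjusted threshold was not counted. The 1 library of ccr4d and the 1 library of caf1ddcr1d gave medians of −0.89 and −0.52, for which no test was made. In caf1dago1d 3 were lower, against 6.76% of all genes. The lowest p was that of rps1401, with 713 and 733 TPM in wt and 356, 407 and 343 in caf1dago1d (−1.04, SE 0.24, adjusted p = 0.00401). For rpl4302 the levels were 1068 and 896 in wt and 491, 481 and 540.1 in the mutant (−1.05, SE 0.31, adjusted p = 0.0225), and for rps2802 726 and 511 in wt and 419, 399 and 415 in the mutant (−0.67, SE 0.20, adjusted p = 0.0234). The calls of these last 2 were lost when single libraries were left out (adjusted p of 0.0514 to 0.275).

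In the 2 ChIP libraries of caf1dago1d, occupancy of ribosomal protein genes was lower throughout. Of 131 members 121 were lower and 0 higher, against 23.1% lower among 5075 genes, with a median of −1.45 against 0.00. For rpl1202 the levels were 238 and 155 TPM in wt and 87.5 and 69.5 in caf1dago1d (−1.70, SE 0.30, adjusted p = 0.00113). For rps2802 they were 797 and 899 in wt and 249.98 and 201 in the mutant (−2.29, SE 0.42, adjusted p = 0.00138), and for rps7 662 and 511 in wt and 237 and 201 in the mutant (−1.80, SE 0.35, adjusted p = 0.00154). These are the 2 ChIP libraries, of those used, that spread genes least over input, as given above. Ribosomal protein genes held 2.74% and 2.32% of their TPM, against 2.10% to 2.86% in 12 libraries of input DNA. The ChIP libraries left out by the filter, replicate 3 of mit1d and of rrp6d, had 2.57% and 2.65%. The part of this likeness to input in the lower occupancy was not tested. Without the library of caf1dago1d strain 524 the count was 47. In exo2d, where only rps3001 was called, the median was 0.51 and 27 members were higher at an unadjusted p under 0.05, while DESeq2 called 5 members and edgeR 20 without chp2d replicate 3. In the 10 other mutants with 2 or more ChIP libraries edgeR called no member, with 0 to 9 members at an unadjusted p under 0.05, and DESeq2 called 1 in caf1*ccr4* and 0 in the others. Among all 5075 genes edgeR called 0 to 269 higher and 0 to 201 lower in these mutants at an adjusted p under 0.05, the most in caf1*ccr4*. The share of all genes at the unadjusted threshold was not counted. The largest of their medians was that of clr3d, 0.48, with all 131 changes positive.

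Transcription efficiency in caf1dago1d moved accordingly, with 98 of 131 members higher and 0 lower, against 11.0% higher among all genes and a median change of 1.51 against 0.04. For rpl22, occupancy was 806 and 685 TPM in wt and 269.7 and 225 in the mutant, while nascent RNA was 1224 and 1286 in wt and 1541, 1665 and 1618 in the mutant (change of the ratio 2.23, SE 0.44, adjusted p = 0.00106). The change was 2.06 for rpl1202 (SE 0.40, adjusted p = 0.000993), with nascent RNA at 131 and 142 in wt and 161, 164 and 240 in the mutant, and 2.13 for rps3001 (SE 0.44, adjusted p = 0.00128). It rested on the same ChIP libraries as the fall in occupancy, and without wt ChIP replicate 1 the count was 18. In the other 11 mutants with replicates no member was called in efficiency by edgeR or DESeq2, with 0 to 10 members at an unadjusted p under 0.05. Among all 5075 genes edgeR called 0 to 19 higher and 0 to 21 lower in these mutants. The median efficiency, 1.28 in wt, was 0.69 in caf1d, 0.96 in caf1*ccr4*, 1.27 in mot2d and 0.28 in the 1 pair of ccr4d libraries, and the change in caf1d had a median of −0.56.

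RNA stability was called lower in few members, 3 of 131 in rrp6d (4.07% of all genes, median change −0.95), 2 in caf1*ccr4* (3.60%, median −0.59) and 1 in exo2d (0.158%, median −0.63). In rrp6d, pA RNA of rpl802 was given above, and its nascent RNA was 784 and 599.7 TPM in wt and 1017 and 1169 in rrp6d, giving −3.01 (SE 0.57, adjusted p = 0.000243). The others in rrp6d were rps601 (−1.96, SE 0.51, adjusted p = 0.0107), with pA RNA of 2383, 2047, 626 and 667 in wt and 439 and 437 in rrp6d, and rpl803 (−1.70, SE 0.54, adjusted p = 0.0392). In caf1*ccr4* they included rpl702 (−1.18, SE 0.37, adjusted p = 0.0379), and in exo2d the call was that of rps1401 (−2.64, SE 0.63, adjusted p = 0.0247), whose nascent RNA was 713 and 733 in wt and 1010 and 1021 in exo2d. Of these 6 calls, only that of rpl802 held against wt replicates 3 and 4 alone or without wt RIP replicate 1, where the others had adjusted p of 0.181 to 0.311 and 0.0623 to 0.146. In ago1d, with a median change of −0.82, 55 members were lower at an unadjusted p under 0.05 and 0 were called by edgeR or DESeq2. Among all 5058 genes edgeR called 9 lower and 8 higher in ago1d at an adjusted p under 0.05. The share of all genes at the unadjusted threshold was not counted. DESeq2 called 22 members in rrp6d, 10 in caf1*ccr4*, 2 in swi6d and 1 in exo2d, for which no share of all genes is given.

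Total RNA was available for wt, ago1d, caf1d and clr4d, with 2 libraries each. The medians of the members were −0.92 in ago1d, −0.91 in caf1d and −0.66 in clr4d, but no member was called by edgeR or DESeq2 and none had an unadjusted p under 0.05. Of all 4946 genes tested, edgeR called 0 in each of these mutants. The spread between the libraries of a strain, with the split by gene length given above, limits this comparison.

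Other genes of the translation machinery, from lists of 7 stalk proteins, 4 ubiquitin fusion genes (3 of which were matched by name and tested) and 7 elongation factor genes, were also counted in pA RNA, where 8.38% (caf1d), 9.88% (caf1*ccr4*) and 16.5% (rrp6d) of all genes were lower. Of the stalk proteins, which bind elongation factors on the large subunit, 5 of 7 were lower in caf1d, 6 in caf1*ccr4* and 6 in rrp6d, with medians of −1.19, −1.25 and −1.33 and 0 higher. Of the ubiquitin fusion genes, 3, 2 and 1 of 3 were lower, and of the elongation factors 4, 2 and 5 of 7. The receptor for activated C kinase, cpc2, a component of the small subunit, was lower in all 3, at −1.42, −1.37 and −1.51. Against wt replicates 3 and 4 alone, however, 1, 4 and 1 of the stalk proteins, 2, 2 and 0 of the ubiquitin fusions and 2, 1 and 1 of the elongation factors were lower in caf1d, caf1*ccr4* and rrp6d. The call of cpc2 was then lost in all 3 (−0.77, −0.72 and −0.85, adjusted p of 0.0656 to 0.100). Of the 34 genes of the mitochondrial ribosome, 0 were lower in caf1d (median 0.02), 1 in caf1*ccr4* (−0.06) and 5 in rrp6d (−0.08), against 8.38%, 9.88% and 16.5% of all genes. In the same mutants 2, 6 and 1 of the 34 were higher, against 426, 472 and 778 of all 5050 genes.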

How the data were processed

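Genes were chosen by name, and members, lists and tests were chosen with earlier results of these data known. The authors mapped reads with STAR 2.7.3a to the PomBase release of 2018, removed reads on ribosomal RNA and counted uniquely mapped reads per gene with HTSeq (version not given in the sources used here), by strand for RNA. The deposited values are raw counts per gene, with no normalization. TPM was computed from count and gene length over protein-coding genes. In groups of 3 or more, a library that correlated under 0.8 with every other one was dropped (replicate 3 of ChIP mit1d and of ChIP rrp6d), while pairs were kept, also 3 pairs of total RNA at 0.735 to 0.797. Each assay was fitted over all its libraries with edgeR 4.0.16 (TMM, quasi-likelihood test, genes with 10 counts in 2 libraries, Benjamini-Hochberg over all protein-coding genes, threshold 0.05), and efficiency and stability as interactions of 2 assays. Groups of 1 library got no p. Genes named were the 5 highest and lowest in each wt assay, the 3 highest and lowest in efficiency and stability, the 3 lowest p where at least 10% of members were called in 1 direction, all where 1 to 3 were called, the 5 most and 3 least unequal families, and rpl41. Replicate numbers did not pair libraries. DESeq2 1.42.0, other scalings, filters and left-out libraries were alternatives. RIP depth was lowest, and intervals cover the spread between libraries. Sequences are from RefSeq, and all 140 names matched. Fits were tested on simulated counts. H3K9me2 ChIP, with 1 library a strain, is given as a range only. Results of 1 gene are not reported here.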

Additional observations from a re-analysis of the deposited data

Results flagged for a closer look

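In 96 sets of libraries and measures with 4 to 10 libraries, 10 had a library far from the others by Dixon's criterion, where chance gives about 1 in 20 for independent sets. These sets were not independent, since they were many measures of the same few groups. Only RIP of chp2d and mot2d and pA RNA of chp2d and wt had enough libraries. All flagged sets were in chp2d and mot2d, and no other mutant could be flagged. In nascent RNA of chp2d, replicate 2 was lowest for rps2802 (468 TPM, group 468 to 631), and replicate 4 highest for rps403 (924 TPM, 511 to 924) and rps601 (1228 TPM, 892 to 1228). In nascent RNA of mot2d, replicate 5 was highest for rps1201 (871 TPM, 532 to 871) and rps901 (1148 TPM, 714 to 1148), replicate 2 lowest for rpl802 (486 TPM, 486 to 596) and replicate 3 lowest for rps3001 (619 TPM, 619 to 673). In pA RNA of chp2d, replicate 2 was lowest in the share of ribosomal protein genes (29.7%, against up to 32.5%) and in rpl3002 (180 TPM, against up to 352), and replicate 1 highest for rpl802 (571 TPM, 322 to 571). Outside the comparisons of the report, input DNA of ago1d held 5.18% of TPM on ribosomal protein genes, against 2.10% to 2.86% in the 12 other input libraries.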

How the results depend on the processing

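Values of the genes named by the rule kept their direction under the alternatives run for them, and 40 of 701 values with 1 library left out and 10 of 233 other values lost the call. Genes named after their values were seen are not among these. Summary values that moved were as follows. With all libraries kept, the call count in occupancy and its caf1dago1d part were 73 (from 122 and 121), and efficiency 24 (from 98). Leaving out 1 library gave 48 to 157 for occupancy (47 to 126 in caf1dago1d), 5 to 24 for nascent RNA (from 10), 125 to 374 for pA RNA (from 236), 18 to 82 in caf1d, 4 to 71 in caf1*ccr4*, 12 to 89 in rrp6d and 0 to 58 in ago1d. For efficiency it gave 18 to 103 and for stability 1 to 46 (from 6). The highest values in occupancy and pA RNA came without chp2d replicate 3 and without wt replicate 4. It gave 0 in total RNA, medians of 0.98 to 1.64 for efficiency and 1.64 to 1.98 for stability, shares of 4.58% to 6.49% (ChIP), 10.0% to 10.3% (RIP), 30.6% to 31.2% (pA) and 24.6% to 37.2% (total), 18 to 21 unequal families and a median gap of 0.69 to 0.78. With the replicate block the counts were 27 for nascent RNA, 35 in ago1d pA RNA and 78 for stability, but same-numbered libraries did not deviate together (correlations of −0.55 to 0.76). Chosen after seeing the data, only wt replicates 3 and 4 gave 112 for pA RNA, with 41, 32, 10 and 0 in caf1d, caf1*ccr4*, rrp6d and ago1d, and 21 for stability, and replicates 1 and 2 gave 758, 74 in ago1d and 243 for stability. A covariate for the length contrast, also chosen so, gave 106 in caf1d and 1 in ago1d. Ago1d also had 6 with library size alone and 29 with DESeq2. Stability gave 10 with RLE factors, 19 with library size alone, 24 scaled without ribosomal protein genes, 35 with DESeq2 and 25 without the filter. By transcript length the shares were 10.8% (RIP) and 32.2% (pA) and the median gap 0.63, and divided by input 10.5%, 29.9% and 0.58. Groups of 1 to 4 libraries, TPM as a share of each library, and the split of the wt pA libraries limit these values.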

Other observations

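The 9 antisense RNAs named for ribosomal protein genes had mean wt pA levels of 3.34 to 13.9 TPM, far under their sense genes, and none was called in any fit by edgeR. Their level differed between wt pA libraries, and rps1601-antisense-1 had 47.8 TPM in replicate 2 against 6.96, 0.17 and 0.57 TPM in replicates 1, 3 and 4.

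Candidate regulators of ribosomal protein gene transcription were followed as levels only. The list held fhl1, ifh1, sfp1, crf1, rrn7, tor1, tor2, sck1, sck2 and psk1, of which ifh1 was not matched by name. Only crf1, sfp1 and sck1 are given here, a choice not set by the naming rule. The levels of the other genes are left out, so those given do not stand for the list. The pA level of crf1, whose budding yeast relative is a corepressor, was 146 ± 16.9 TPM (SD, n = 4) in wt, 311 ± 44.2 (n = 2) in caf1d and 273 ± 2.41 (n = 2) in caf1*ccr4*. For sfp1, coding for an activator, it was 88.6 ± 15.6 in wt and 187 ± 53.0 in caf1d. The kinase gene sck1 had 83.1 ± 8.38 in wt and 180 ± 25.4 in caf1d. These are shares of libraries in which the share of ribosomal protein genes was lower, and the differences were not tested. Higher levels were common there, since 37.1% of 4990 genes in caf1d lay above all 4 wt libraries in every library. In caf1*ccr4* this held for 38.7% of 4992 genes.

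In H3K9me2 ChIP, with 1 library for each of 9 genotypes, ribosomal protein genes held 0.803% to 2.95% of TPM.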
